A study of Mus musculus with 3 samples.

Results

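The Spp1 Gpnmb alveolar macrophages of irradiated mouse lung were taken as the cells that carried an alveolar macrophage programme and, within it, more of Gpnmb, Ctsk and Mfge8 than of Ear1, Krt79 and Cidec. A cell was gated when at least 3 of the 7 alveolar macrophage genes Chil3, Marco, Siglecf, Plet1, Atp6v0d2, Abcg1 and Lpl were above 0 and Cd3e, Cd79a, Epcam and Pecam1, which mark T cells, B cells, epithelium and endothelium, were all at 0. A gated cell was a member when the mean natural-log value of Gpnmb, Ctsk and Mfge8 exceeded that of Ear1, Krt79 and Cidec, and a resident-side cell when it was smaller. In all, 1235 of 19622 cells were members, 457 were resident-side cells and 1790 were gated. Members were thus chosen by the measured values of these genes, and the levels of these genes in them are a description.

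The lungs came from 3 female wild-type (WT) C57BL6/J mice, each of which had received 13 Gy to both sides of the thorax 5 months earlier. The CONV mouse was irradiated at a conventional dose rate and the FLASH mouse at an ultra-high dose rate. The CONV AsiDNA mouse was irradiated as the CONV mouse and was given AsiDNA, a cholesterol-coupled oligonucleotide that imitates a broken DNA end and draws repair proteins away from the chromosomes, at 100 mg/kg on 2 consecutive days and at 200 mg/kg on the day of irradiation. Each condition was 1 mouse and 1 library of 10x 3' single-cell RNA, all 3 mice were irradiated, and unirradiated libraries were not analysed here. A difference between libraries can therefore not be told apart from a difference between mice or preparations, no test between conditions was possible, and intervals cover the sampling of cells only. Where 3 values follow each other, they belong to CONV, CONV AsiDNA and FLASH in that order.

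Alveolar macrophages live on the air side of the alveolus, where they clear surfactant, and they store lipid when its uptake outpaces its breakdown and export. In injured and fibrotic lung, macrophages that carry Spp1 (osteopontin, a secreted matrix-binding cytokine), Gpnmb (a membrane glycoprotein of lysosome-rich macrophages), Mfge8 (a bridge to dying cells) and Ctsk (cathepsin K, a collagen-cleaving protease) are known as a lipid-associated or profibrotic type. The work of these cells runs through the lysosome, where cathepsins cut protein, Lipa frees cholesterol from its esters, and Npc1 and Npc2 pass it on. Lipid content was not measured, so foaminess is the name of the type and not a reading of these cells.

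The gate did not act evenly on the libraries. Among cells with at least 3 gate genes, a lineage gene removed 2 of 1056 in CONV, 289 of 680 in CONV AsiDNA and 153 of 498 in FLASH, and Epcam accounted for 1, 289 and 151 of them. The removed cells carried Chil3 in 100% of cases in each library, while Sftpc, a marker of alveolar type II cells, was above 0 in 0.346% of them in CONV AsiDNA and 1.96% in FLASH. They stood mostly on the resident side, with 70 above and 208 below the score threshold in CONV AsiDNA and 14 above and 134 below in FLASH. Shares are therefore given below with and without them. Some genes were listed at 0 in every member (19, 78 and 150 of 8503 genes compared), a count that is larger where members are fewer (881, 216 and 138), so its order was not read as a difference between libraries. Among them were mt-Co3 and mt-Atp6 in CONV AsiDNA, and the part of such gaps in any single gene's difference was not tested. The libraries shared 9 to 17 cell barcodes in pairs, none of them of 2 members. Members had a median of 5248, 5168 and 5184 adjusted counts (the deposited value turned back from the natural log) and 2085, 2183 and 2115 genes in the same order.

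Members were the large majority of the gated alveolar macrophages in CONV and less than that in the other two libraries. They numbered 881 of 6372 cells in CONV, which is 13.8% (95% exact interval 13.0 to 14.7), against 216 of 6983 in CONV AsiDNA, 3.09% (2.70 to 3.53), and 138 of 6267 in FLASH, 2.20% (1.85 to 2.60). Of the gated cells, members made up 83.6% (81.2 to 85.8) of 1054 in CONV, 55.2% (50.2 to 60.2) of 391 in CONV AsiDNA and 40.0% (34.8 to 45.4) of 345 in FLASH. The intervals did not overlap between libraries on either denominator. They cover the sampling of cells within 1 mouse each, so this is no comparison of conditions. Resident-side cells numbered 107, 151 and 199, fewest in CONV, and 107, 359 and 333 with the cells that carried a lineage gene kept. CONV AsiDNA and FLASH thus changed places in these counts. They did not in shares, as the counts were 359 of 6983 cells, 680 of them gated, and 333 of 6267, 498 of them gated. With those cells kept, members came to 13.8%, 4.10% and 2.43% of all cells and to 83.5%, 42.1% and 30.5% of gated cells, so the order of the members' shares was the same.

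**Figure D1:**
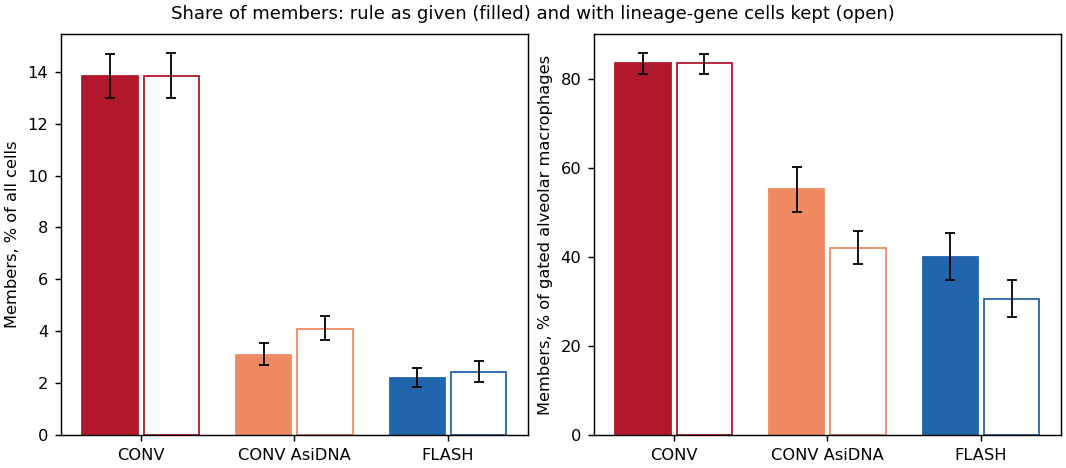
Share of members among all cells (left) and among gated alveolar macrophages (right) in the 3 libraries, with exact 95% intervals over cells as error bars. Filled bars follow the rule as given, at 13.8%, 3.09% and 2.20% of all cells, and open bars keep the cells with a lineage gene, at 13.8%, 4.10% and 2.43%.

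The members of CONV also stood further past the threshold. The median score difference was 1.22, 0.787 and 0.645 natural-log units in members and -0.28, -0.61 and -0.77 in resident-side cells. Resident-side cells of CONV thus lay nearest the threshold, and resident-side cells were not matched by score between libraries. In CONV 343 of 881 members exceeded 1.5, in CONV AsiDNA 43 of 216 and in FLASH 22 of 138. All 3 of Gpnmb, Ctsk and Mfge8 were above 0 in 378, 77 and 43 members. The threshold did not lie in a gap of the distribution. Within 0.25 above it were 6.93%, 9.21% and 8.41% of gated cells, and within 0.25 below it 4.84%, 8.95% and 8.41%. Closer to it, 12, 12 and 7 members were within 0.1 above and 14, 12 and 8 resident-side cells within 0.1 below. A further 66, 24 and 8 gated cells had a score difference of exactly 0 and belonged to neither side, of which 55, 13 and 5 had all score genes at 0.

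**Figure D2:**
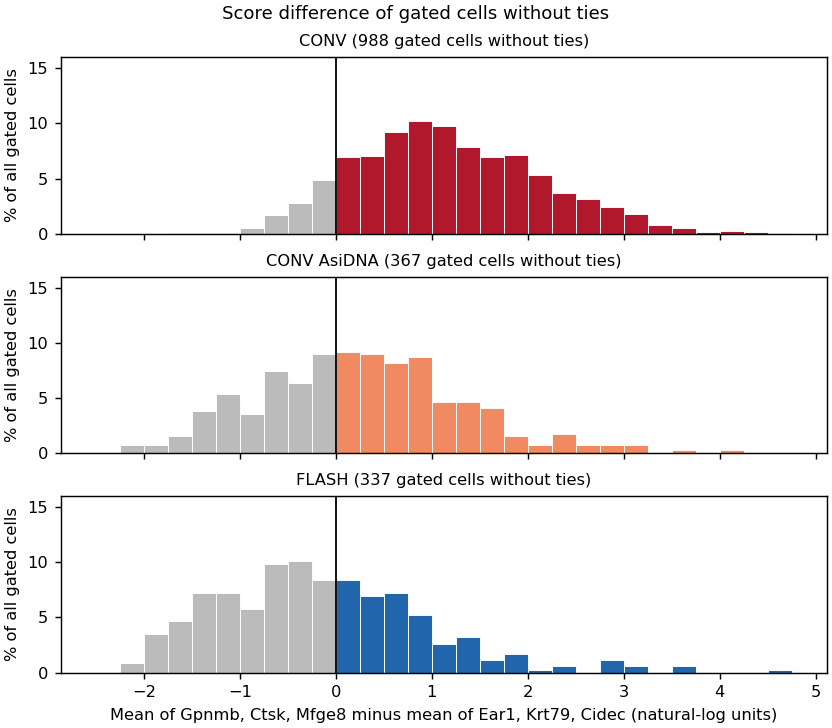
Distribution of the score difference in gated cells other than ties, in natural-log units along the x axis and as a percentage of all gated cells, ties included, along the y axis, with members coloured and resident-side cells grey. The bulk of CONV lies to the right of the threshold at 0, with a member median of 1.22, while CONV AsiDNA and FLASH spread over both sides, with member medians of 0.787 and 0.645.

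The gate genes were used by the rule, so their levels describe the members and are no check of the label. Chil3 (a chitinase-like protein of mouse alveolar macrophages) was above 0 in 793 of 881, 211 of 216 and 131 of 138 members, and was listed at 0 in all C1q-positive interstitial macrophages of the same libraries, which are cells outside the gate with at least 2 of C1qa, C1qb and C1qc above 0. Plet1, a surface protein of alveolar macrophages, followed with 91.5%, 97.7% and 94.9%. Atp6v0d2, a subunit of the lysosomal proton pump, was above 0 in all 881 members of CONV, 215 of 216 of CONV AsiDNA and all 138 of FLASH. Siglecf, the sialic-acid lectin used to sort alveolar macrophages, was above 0 in 26.3%, 40.7% and 52.9% of members, and was thus lowest in CONV. Of alveolar macrophage genes that the rule did not use, the integrin Itgax was above 0 in 96.1%, 98.1% and 97.1% of members and in 22.7%, 23.9% and 21.5% of the interstitial macrophages, and the ribonuclease gene Ear2 in 94.8%, 92.1% and 94.9% of members and 7.03%, 5.92% and 1.89% of the interstitial macrophages. Markers of T, B and NK cells, mast cells, alveolar type II cells, endothelium, fibroblasts and smooth muscle were listed at 0 in every member, and no doublet caller was run. The rule had already removed cells with Cd3e, Cd79a, Epcam or Pecam1, and the deposited values list some genes at 0 in whole groups of cells. These zeros are therefore no check of purity. Other marker sets were not all at 0. Their summed levels in members were 0, 32.7 and 124 adjusted CPM (adjusted counts per 1000000, summed over the members of a library) for club and ciliated cells, 29.3, 0 and 0 for alveolar type I cells, where Hopx was the gene found, 36.4, 17.3 and 28.6 for neutrophils, 27.2, 13.6 and 35.7 for monocytes and 8.54, 3.63 and 2.86 for dendritic cells, and their part in the results was not tested. In resident-side cells, B cell markers summed to 1090 adjusted CPM in CONV AsiDNA and alveolar type II markers to 1079 in FLASH. The part of these in comparisons with resident-side cells was not tested.

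A small set of members carried genes of interstitial macrophages. A C1q gene was above 0 in 59 members of CONV (6.70%, 5.14 to 8.55), 2 of CONV AsiDNA (0.926%, 0.112 to 3.30) and 7 of FLASH (5.07%, 2.06 to 10.2), and in no resident-side cell. The summed level of the 7 interstitial macrophage markers was 857, 209 and 681 adjusted CPM in members and 116, 53.4 and 27.5 in resident-side cells. In CONV these 59 cells had Gpnmb above 0 in 55, Spp1 in 50 and C3ar1 in 49, but Chil3 in 21, and none had Krt19. In FLASH all 7 C1q-positive members had Chil3 at 0, whereas the 131 members without C1q all carried it. A further 50 members of CONV had neither a C1q gene nor Chil3 above 0, against 3 in CONV AsiDNA, and of those 50 Gpnmb was above 0 in 48, Trem2 in 47, Cd36 in 38 and Mmp14 in 37. Whether such cells came from monocytes or held more than a single cell was not tested. Without the C1q-positive cells, members were 12.9%, 3.06% and 2.09% of all cells.

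Spp1 varied widely between members of the same library. Its level in members was 28078, 24745 and 22335 adjusted CPM, and it was above 0 in 83.8%, 89.8% and 91.3% of them. The median member held 87, 64.5 and 60 adjusted counts of Spp1, with a 90th percentile of 392, 357 and 275. The members of CONV differed from those of the other libraries by 0.18 and 0.33 on the log2 scale, while resident-side cells were at 13221, 7008 and 6104 adjusted CPM and interstitial macrophages at 1758, 168 and 139. In CONV the members held 90.7% of all Spp1 of that library, against 70.7% in CONV AsiDNA and 67.4% in FLASH. This share depends on how many cells were members, at 13.8%, 3.09% and 2.20% of all cells. It also leaves out the 2, 289 and 153 cells removed for a lineage gene, so it does not compare how confined Spp1 was to the type.

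The 3 score genes did not run in parallel. Gpnmb stood at 1248, 701 and 984 adjusted CPM in CONV, CONV AsiDNA and FLASH and was above 0 in 80.1%, 67.6% and 71.7% of members. Mfge8 stood at 1884, 789 and 1536 and was above 0 in 66.7%, 43.5% and 37.0%, so that in FLASH the smallest share of members held a sum between those of the other libraries. Ctsk was alike at 3002, 3019 and 3076, and was above 0 in 79.1%, 98.6% and 94.9%, the lowest share being that of CONV. Resident-side cells were at 101, 112 and 161 for Gpnmb, 51.6, 34.2 and 8.13 for Mfge8 and 616, 1157 and 1141 for Ctsk, differences that the rule itself made.

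The promoters of the markers were searched for motifs of lysosomal gene control, as were those of the 25 lysosome genes described further on. Windows of 250 bases before to 50 after the start were taken from RefSeq on GRCm38.p6, and each motif was read on both strands. CACGTG, the E-box read by the TFEB family, was in none of the 6 promoters of the 5 genes Chil3, Spp1, which has 2, Gpnmb, Mfge8 and Ctsk, and in 7.15% of 32851 mouse promoters. The AP-1 motif TGAGTCA was in 1 of the 6, that of Gpnmb, and in 1709 of the 32851. The part before the start is shown for the 2 score genes Gpnmb (chr6:49036268-49036517, plus strand) and Ctsk (chr3:95498960-95499209, plus strand), in which no base is in capitals because neither motif occurs there.
Gpnmb: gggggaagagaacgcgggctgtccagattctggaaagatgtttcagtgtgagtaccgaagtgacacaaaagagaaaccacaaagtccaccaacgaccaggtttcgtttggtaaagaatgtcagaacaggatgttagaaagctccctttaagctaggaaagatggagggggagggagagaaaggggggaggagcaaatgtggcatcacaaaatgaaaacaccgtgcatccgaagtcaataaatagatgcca
Ctsk: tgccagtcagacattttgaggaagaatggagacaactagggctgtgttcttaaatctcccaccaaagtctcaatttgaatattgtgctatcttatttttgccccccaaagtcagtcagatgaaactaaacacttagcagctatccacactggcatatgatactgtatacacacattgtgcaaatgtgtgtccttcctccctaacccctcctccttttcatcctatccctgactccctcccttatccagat
Of the lysosome list 20 of 25 genes matched, with 29 promoters, and CACGTG was in 8 of the 29 (27.6%), those of Lamp1, Ctsa, Ctsd, Ctsl, Gla, Glb1, Atp6v1a and Mcoln1. By gene, 40.0% of the 20 held it in at least 1 promoter, as did 8.09% of all 27025 genes. TGAGTCA was in 2 of the 29, of Glb1 and Psap. For the longer CLEAR element of lysosomal genes, which contains CACGTG, only 1 exact sequence was searched and no other form. That exact sequence was in none of the 29 and in 0.326% of all promoters. It is so rare that its absence from 29 promoters does not show that they lack CLEAR elements. The bases before the start of Lamp1, the lysosomal membrane protein (chr8:13158911-13159160, plus strand), are shown with 4 copies of CACGTG in capitals, and those of Glb1, lysosomal beta-galactosidase (chr9:114400828-114401077, plus strand), with the run in capitals in which TGAGTCA and CACGTG overlap.
Lamp1: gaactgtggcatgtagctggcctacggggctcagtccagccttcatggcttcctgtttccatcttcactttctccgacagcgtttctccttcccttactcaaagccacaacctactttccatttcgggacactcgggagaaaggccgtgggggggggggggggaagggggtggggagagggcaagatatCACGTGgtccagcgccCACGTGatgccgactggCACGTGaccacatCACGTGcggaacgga
Glb1: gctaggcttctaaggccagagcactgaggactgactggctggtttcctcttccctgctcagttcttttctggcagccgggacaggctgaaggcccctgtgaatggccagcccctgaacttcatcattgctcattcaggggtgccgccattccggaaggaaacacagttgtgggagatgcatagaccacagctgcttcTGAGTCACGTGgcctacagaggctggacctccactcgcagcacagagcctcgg
The level of the genes with the motif did not set them apart from the others throughout. The 8 lysosomal genes with CACGTG had a median log2 ratio of members over resident-side cells of 0.42, 0.38 and 0.42, and the 12 without it 0.42, 0.23 and 0.25.

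Beyond the score genes, members were compared with resident-side cells of their own library. Ratios are log2 of adjusted CPM with 10 added to each side, over 9084 genes whose median ratio was -0.12, -0.11 and -0.13 and of which 35.6%, 36.7% and 35.8% had a ratio above 0. At least 2-fold higher in members were 74 genes (0.815% of those compared), 111 (1.22%) and 144 (1.59%), and at least 2-fold lower were 68 (0.749%), 86 (0.947%) and 128 (1.41%). In all 3 libraries 38 genes were higher (0.418%) and 7 lower (0.0771%). The rule split the cells on genes of the same cells, so these values describe the 2 sides of the split and nothing was read from their number.

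Of the 14 lipid-associated macrophage genes, 5, 7 and 7 were at least 2-fold higher in members of CONV, CONV AsiDNA and FLASH and none was 2-fold lower, with medians of 0.80, 1.00 and 1.08. Trem2, the lipid receptor of these macrophages, was at 751, 416 and 474 adjusted CPM in members and 385, 145 and 180 in resident-side cells. Fabp5, a fatty acid carrier, was at 3256, 2602 and 2349 in members and 1626, 940 and 776 in resident-side cells. Cd63, a tetraspanin of the late endosome, was at 1199, 881 and 855 in members and 566, 335 and 326 in resident-side cells. All 3 genes were highest in the members of CONV and lowest in the resident-side cells of the other two libraries. Cd36, the scavenger receptor for oxidized lipid, was at 323, 239 and 388 in members and 36.9, 97.2 and 155 in resident-side cells, and was above 0 in 39.5%, 25.5% and 35.5% of members. Cd9 was a list gene that did not differ, with 4463, 5014 and 5096 in members and 4420, 5295 and 5532 in resident-side cells. Apoe is counted among the 2-fold genes although it gives no true ratio. This lipid carrier of interstitial macrophages was listed at 0 in every resident-side cell and was above 0 in 42, 5 and 7 members, of which 33, 2 and 7 were C1q-positive.

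The 25 lysosome genes were higher by less, and together. They lay above 0 in 23, 24 and 23 cases, with medians of 0.42, 0.38 and 0.37, but 2, 2 and 3 were at least 2-fold higher and none 2-fold lower. Ctsb and Ctsl, cathepsins of the endosome and lysosome, passed 2-fold in each library: Ctsb was at 5459, 3748 and 3830 adjusted CPM in members and 2687, 1759 and 1731 in resident-side cells. Ctsl was at 2109, 1170 and 1255 in members and 914, 539 and 505 in resident-side cells. Ctsd, cathepsin D, was at 15489, 12204 and 12630 in members and 9520, 7077 and 6902 in resident-side cells. Lipa, the acid lipase, was at 2104, 1546 and 1676 in members and 1381, 942 and 1112 in resident-side cells, and Psap, which activates sphingolipid hydrolases, at 13439, 8981 and 9328 against 8984, 5263 and 4997. In each of these genes every library had its members above its resident-side cells, and CONV was above the other two on both sides of the split. The resident-side cells of CONV lay nearer the threshold, and the part of this in the order was not tested. Npc2, the sterol carrier, was the third 2-fold gene in FLASH, where it was above 0 in 30.4% of members at 167 adjusted CPM, against 548 and 427 in CONV and CONV AsiDNA. Mitf and Tfeb, transcription factors of lysosomal genes, had ratios from -0.31 to -0.03 and from 0.01 to 0.41.

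Iron storage followed the same direction. Fth1, the ferritin heavy chain, was at 29913, 27222 and 29856 adjusted CPM in members and 18509, 13252 and 14453 in resident-side cells. Ftl1, the light chain, was at 14929, 13112 and 15296 in members and 9315, 7352 and 8712 in resident-side cells. Over the 7 iron handling genes the medians were 0.68, 0.89 and 0.71, with 2 genes 2-fold higher in each library. Genes of cholesterol synthesis and uptake were above 0 in 9 of 13 in CONV and in all 13 in CONV AsiDNA and FLASH, with medians of 0.08, 0.38 and 0.57, and 2 of them, in FLASH, reached 2-fold. Of genes that act on matrix, Mmp12, macrophage elastase, was at 791, 1232 and 1705 in members and 122, 65.7 and 42.7 in resident-side cells, from 11.4%, 13.4% and 15.9% of members. Members with Chil3 and no C1q gene above 0 were lower, at 398, 604 and 1067. Igf1, a growth factor for fibroblasts and epithelium, was at 646, 329 and 364 in members and 367, 134 and 149 in resident-side cells. Fn1, fibronectin, did not separate the sides in CONV AsiDNA and FLASH, at 1995 and 1735 in members against 1771 and 1727, and was lower in members of CONV at 1661 against 2660.

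Genes that were lower in members included those of antigen presentation. All 8 genes of the MHC class II list had ratios below 0 in all 3 libraries, with medians of -1.09, -0.43 and -0.48. The list held H2-Aa, H2-Ab1, H2-Eb1, Cd74, H2-DMa and H2-DMb1, and also the regulator Ciita and the costimulatory ligand Cd86. Of the 8 genes, 5 were 2-fold lower in CONV and none in CONV AsiDNA or FLASH. H2-Ab1, a chain of the class II molecule, was at 333, 481 and 398 adjusted CPM in members and 1049, 760 and 586 in resident-side cells. Cd74, the invariant chain, was at 3161, 3856 and 3250 in members and 5754, 5290 and 4506 in resident-side cells. Of the 16 resident alveolar macrophage genes, 2 were 2-fold lower in members of each library and none higher, while 4, 7 and 7 had ratios above 0, with medians of -0.33, -0.07 and -0.19. Fabp1, a fatty acid carrier, was at 18.8, 68.1 and 52.8 in members and 125, 294 and 504 in resident-side cells. Pparg, the nuclear receptor that sets the alveolar macrophage programme, was at 159, 248 and 270 in members and 236, 402 and 356 in resident-side cells, and its ratios of -0.54, -0.68 and -0.39 did not reach 2-fold. The retained alveolar macrophage genes Itgax, Csf2ra and Csf2rb had ratios between -0.03 and 0.15.

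**Figure D3:**
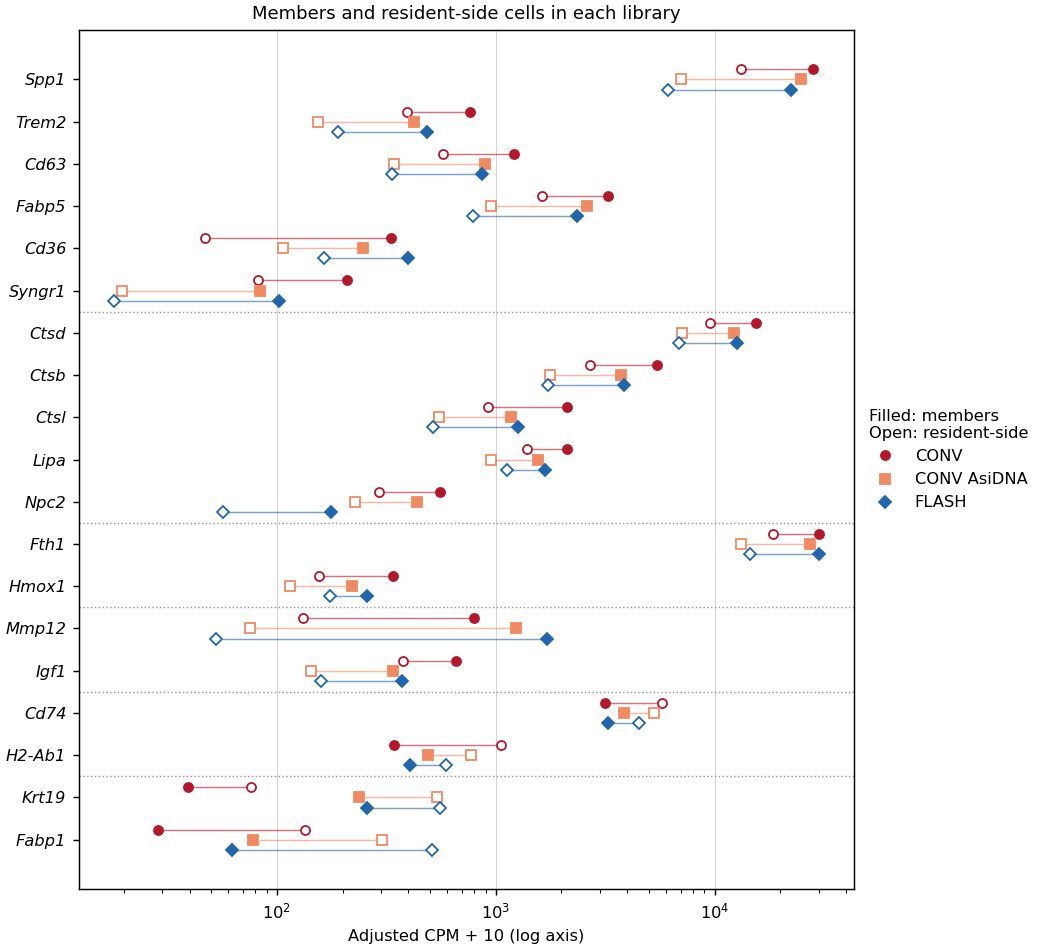
Level of 19 genes in members (filled) and resident-side cells (open) of each library, as adjusted CPM plus 10 on a log axis, with dotted lines between gene groups. Spp1, the cathepsins, ferritin and Mmp12 are higher in members of every library, while Cd74, H2-Ab1, Krt19 and Fabp1 are lower.

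The members of the 3 libraries were then compared with each other, which asks whether cells that met the same rule were alike after CONV, CONV AsiDNA and FLASH. Over 8503 genes the ratio of CONV to CONV AsiDNA had a median of -0.10 on the log2 scale, that of CONV to FLASH -0.05 and that of CONV AsiDNA to FLASH 0.04, with 39.1%, 44.9% and 54.9% of genes above 0. At least 2-fold higher in CONV were 125 genes against CONV AsiDNA (1.47%) and 169 against FLASH (1.99%), and at least 2-fold lower were 158 (1.86%) and 169 (1.99%). Between CONV AsiDNA and FLASH 73 genes were higher in CONV AsiDNA (0.859%) and 52 lower (0.612%). Both comparisons of CONV use the same CONV cells, and 75 genes were higher (0.882%) and 83 lower (0.976%) in CONV against both. In either direction 283 (3.33%), 338 (3.98%) and 125 (1.47%) genes were 2-fold apart in the 3 pairs, of which 40, 59 and 27 were listed at 0 in every member of a library of that pair. With each pair scaled to a median gene ratio of 0, the split for CONV over CONV AsiDNA turned from 125 higher and 158 lower to 169 higher and 105 lower.

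Genes higher in CONV members than in both others included Mmp14, Marcks, Slc16a9 and Syngr1, while the matrix list went in both directions. Of its 14 genes compared, 1 was 2-fold higher and 1 lower in CONV than in CONV AsiDNA and 1 higher and 3 lower than in FLASH, with medians of -0.24 and 0.12, and Mmp19, a matrix metalloproteinase, was lowest in CONV at 640, 1114 and 1324. Mmp14, a membrane-bound collagenase, was at 134, 37.2 and 31.4 adjusted CPM in the 3 libraries and was above 0 in 41.9%, 12.5% and 10.1%. Marcks, a membrane and actin regulator, was at 111, 5.45 and 14.3, and Slc16a9, a transporter of the monocarboxylate family, at 74.5, 5.45 and 1.43. Each of these 3 genes was found in a minority of CONV members and in at most 12.5% of members elsewhere. Resident-side cells, too, had their highest level in CONV, at 101, 4.11 and 2.03 for Mmp14, 70.0, 11 and 0 for Marcks and 24.0, 1.37 and 0 for Slc16a9, without matching by score. Syngr1, a vesicle protein, was at 199, 73.6 and 92.8 in members, log2 ratios of 1.32 and 1.03, and at 71.9, 9.58 and 8.13 in resident-side cells. With bins of the score weighted equally its ratios were 1.00 and 0.45, so the call against FLASH was lost. Lyz1, Mmp2 and Hopx were above 0 in 38, 106 and 94 of the 881 CONV members and listed at 0 in members of the other two libraries.

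By list, 2 of 14 lipid-associated genes were 2-fold higher in CONV than in CONV AsiDNA and 1 than in FLASH, with none lower and medians of 0.31 and 0.27, which came to 0.096 and 0.077 with bins of the score weighted equally. The call against FLASH was Syngr1, which fell short of 2-fold with equal bins. Apoe was 1 of the 2 calls against CONV AsiDNA, with a log2 ratio of 1.61 that was -0.61 without C1q-positive cells. Of 25 lysosome genes, 20 had ratios above 0 in each comparison of CONV, with medians of 0.19 and 0.20 (0.12 and 0.093 with equal bins), and 2 were 2-fold higher than in FLASH. Npc2, the sterol carrier, was among these, at 548, 427 and 167. Igf1, at 646 in CONV, had log2 ratios of 0.95 and 0.81, and Ctsl had ratios of 0.84 and 0.74, all short of 2-fold. Genes of cholesterol synthesis and uptake ran the other way, with 12 of 13 lower in CONV in each comparison, medians of -0.38 and -0.34, and none 2-fold. Hmgcs1, an early enzyme of the pathway, was at 363, 475 and 477. Of 6 complement genes 2 were 2-fold higher in CONV in each comparison, with medians of 0.04 and 0.01. C3ar1, the receptor of C3a, was at 66.4, 10.9 and 22.8, and at 29.1, 1.83 and 0 in members without a C1q gene above 0, while C3, Cfb, Cfp and C5ar1 were within 2-fold. Of 7 monocyte and interstitial macrophage genes, 6 were 2-fold higher in CONV than in CONV AsiDNA and 2 than in FLASH, with medians of 1.73 and 0.35 that came to 0.76 and 1.15 without C1q-positive cells and to 1.33 and -0.12 with equal bins, so the direction against FLASH turned.

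The genes lower in CONV members included resident alveolar macrophage genes and inflammatory genes. Of 16 resident genes 3 were 2-fold lower in each comparison and none higher, with a median of -0.35 in both, and the call on Car4 against FLASH was lost with equal bins of the score. Krt19, a keratin that mouse alveolar macrophages carry, was at 29.3, 227 and 250 adjusted CPM, and was above 0 in 7.26%, 46.8% and 55.8% of members. Car4, a carbonic anhydrase of alveolar macrophages, was at 397, 1254 and 980 and was above 0 in 28.5%, 65.7% and 63.8%. Both were lowest in CONV by a wide margin and alike in the other two libraries, as were Cd2, an adhesion molecule, at 35.9, 210 and 200, and Pdlim1, an actin-linked adaptor, at 37.0, 162 and 168. Resident-side cells, not matched by score, had the same order for Krt19, at 66.4, 530 and 550, and for Cd2, at 64.5, 327 and 297. For Car4 the resident-side cells were closer together, at 861, 1280 and 1293.

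Of 8 chemokine genes compared, 4 were 2-fold lower in CONV than in CONV AsiDNA and 4 than in FLASH, with none higher and medians of -1.06 and -1.02. Cxcl2, a neutrophil chemokine, was at 257, 977 and 575 adjusted CPM in members and above 0 in 17.7%, 44.9% and 37.7% of them. With equal bins of the score its log2 ratio of CONV over FLASH was -0.89, short of 2-fold. Ccl3, a chemokine for monocytes, was at 77.1, 279 and 221 in members. Resident-side cells, not matched by score, were at 492, 888 and 1170 for Cxcl2 and 109, 189 and 323 for Ccl3, so CONV was lowest on both sides. Of 5 inflammatory cytokine genes 2 were 2-fold lower in each comparison: Tnf, at 13.8, 113 and 48.5, and Il1b, which was listed at 0 in CONV and stood at 204 and 130. The call on Il1b rests on that 0, a state in which the files also list mitochondrial genes that every cell uses. Il1b was listed at 0 in the resident-side cells of CONV too, yet interstitial macrophages of CONV had it at 1719, close to 1969 and 1598 in the other two libraries. Dissociation response genes, of which 5 were compared, had medians of -0.52 for CONV over CONV AsiDNA and -0.15 over FLASH. Of these, 4 and 3 had ratios below 0, and 1 and 0 were 2-fold lower. Their part in the chemokine and cytokine values was not tested.

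**Figure D4:**
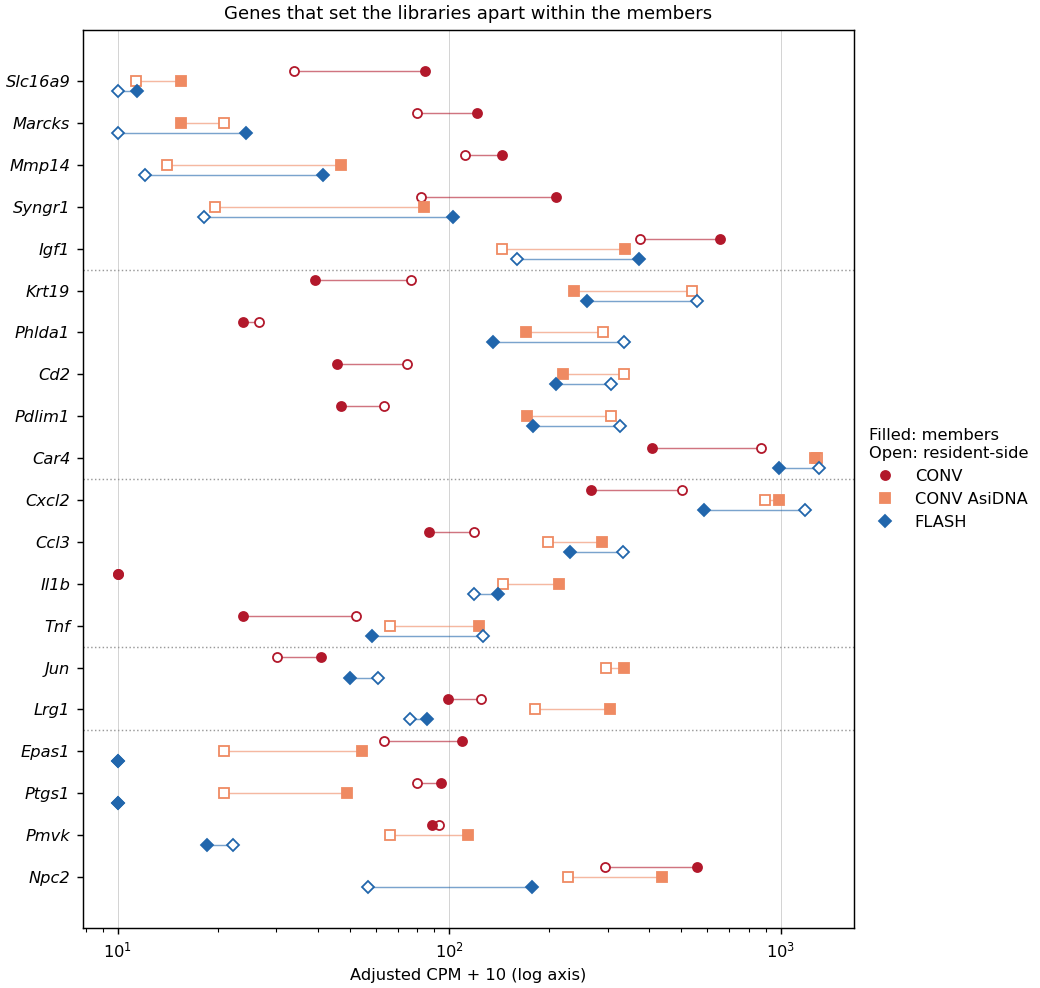
Level of 20 genes in members (filled) and resident-side cells (open) of each library, as adjusted CPM plus 10 on a log axis, where 10 stands for a gene listed at 0. CONV is highest in the first 5 genes and lowest in the 9 genes from Krt19 to Tnf in members, with CONV AsiDNA set apart in Jun and Lrg1 and FLASH in Epas1, Ptgs1, Pmvk and Npc2.

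Members of CONV AsiDNA and FLASH had fewer genes 2-fold apart by the rule as given, an order that turned with a score difference of at least 0.5, where 156 genes were higher and 104 lower in CONV AsiDNA than in FLASH against 131 and 106 in CONV than in CONV AsiDNA. Jun, an AP-1 subunit that also responds to tissue dissociation, was at 326 in CONV AsiDNA, against 30.9 in CONV and 40.0 in FLASH, and resident-side cells were at 20.3, 286 and 50.8. Lrg1, a secreted glycoprotein, was at 88.9, 295 and 75.7 and was above 0 in 50.9% of members in CONV AsiDNA. Fos, the partner of Jun, was at 824, 1233 and 1192 and did not set CONV AsiDNA apart from FLASH. Of 5 dissociation response genes compared for CONV AsiDNA over FLASH, 4 had ratios above 0, with a median of 0.30. In that list 2 genes were 2-fold higher in CONV AsiDNA and 0 were 2-fold lower. In FLASH, Epas1 and Ptgs1 were listed at 0 in members and resident-side cells, against 99.4 and 44.5 for Epas1 and 84.3 and 39.1 for Ptgs1 in members of CONV and CONV AsiDNA. Pmvk, an enzyme of the mevalonate pathway, was at 78.4, 104 and 8.57. Mitochondrial transcripts made up a median of 2.06%, 0.317% and 2.54% of a member's adjusted counts, and 3, 5 and 1 of 13 mitochondrial genes were listed at 0 in every member. By gene, mt-Nd4 was at 1224, 99.9 and 1426 and mt-Co3 at 4798 and 5667 in CONV and FLASH but listed at 0 in CONV AsiDNA, with resident-side cells in the same state.

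Cell division genes rested on few members. Mki67, the proliferation antigen, was above 0 in 16, 5 and 4 members. Top2a, a topoisomerase of dividing cells, was above 0 in 5, 4 and 4. All 12 genes of the list had ratios below 0 for CONV over FLASH, with a median of -0.84, and in FLASH Stmn1, a regulator of microtubules, was above 0 in 4 members as well. Without cells above the 95th percentile of summed value the ratios of CONV over FLASH turned to 1.22 for Mki67, 1.29 for Stmn1 and 0.83 for Top2a. Interferon response genes had ratios of members over resident-side cells with medians of 0.11, 1.53 and 1.01, but Ifit1 was above 0 in 2, 6 and 1 members and Rsad2 in 21, 5 and 1. Between libraries, 4 of 8 interferon genes were 2-fold lower in CONV members than in CONV AsiDNA and 4 than in FLASH. The medians were -0.81 and -0.78, and the second came to -0.17 with a minimum sum of 50.

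Since CONV members scored higher, the libraries were also compared at matched score differences of 0 to 0.5, 0.5 to 1, 1 to 1.5 and over 1.5, which hold 147, 205, 186 and 343 members in CONV, 71, 66, 36 and 43 in CONV AsiDNA and 53, 43, 20 and 22 in FLASH. Krt19 was lower in CONV in each of the 4 bins, at 65.4, 33.7, 29.4 and 12.1 adjusted CPM against 289, 215, 260 and 125 in CONV AsiDNA and 339, 251, 193 and 112 in FLASH. Mmp14 was higher in CONV in each bin, at 100, 123, 130 and 157 against 25.8, 23.9, 65.1 and 51.7 in CONV AsiDNA and 3.89, 27.9, 67.5 and 64.3 in FLASH. The bins were cut on the genes of the rule, and the cause of the differences in both genes was not tested. With each bin given the same weight, the log2 ratios of CONV over CONV AsiDNA and over FLASH were -2.36 and -2.37 for Krt19, 1.41 and 1.43 for Mmp14, -1.33 and -0.87 for Car4 and 0.81 and 0.56 for Igf1. Each of these ratios was smaller in size than that of the sums, and Car4 was no longer 2-fold lower in CONV than in FLASH. Syngr1 came to 1.00 and 0.45, so that it was no longer 2-fold higher than in FLASH, and Cxcl2 to -1.85 and -0.89, no longer 2-fold lower than in FLASH. The ratios were -0.01 and 0.12 for Spp1, 0.62 and 0.34 for Trem2, 0.25 and 0.14 for Cd63 and 0.59 and 0.34 for Ctsl.

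**Figure D5:**
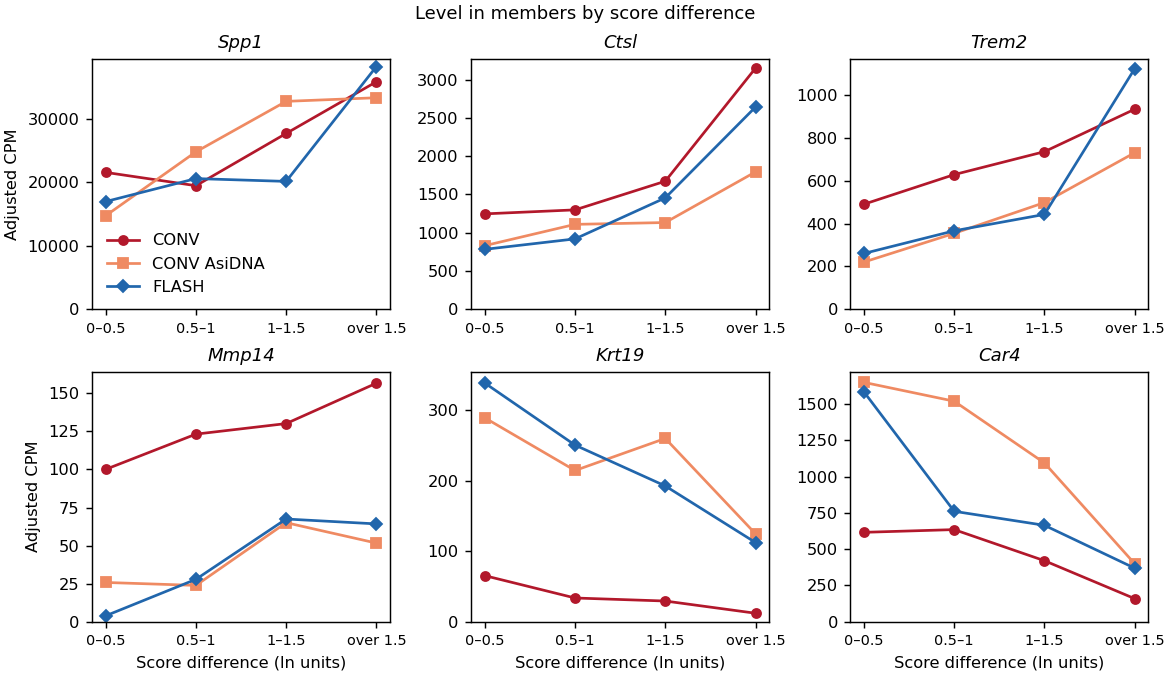
Level of 6 genes in members, as adjusted CPM, by score difference in natural-log units for the 3 libraries. Krt19 is lowest and Mmp14 highest in CONV in every bin, and the last FLASH point stands for 22 cells.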

How the data were processed

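Single cells of dissociated lung were captured with the 10x 3' chemistry; the submitters' processing notes name Cell Ranger 6.0.0 and the mm10 build, and the study names Seurat, while the sources used here give no later steps. The deposited values of the 3 cell tables, made by the authors, are natural log values that turn back, within 1e-06, into whole numbers when the exponential is taken and 1 subtracted. The totals per cell lie between 1432 and 8462 adjusted counts, and genes that every cell uses are listed at 0 in whole groups of cells, so the numbers are called adjusted counts and no count model was run. All 19622 cells and 22954 genes entered, with no further cell filter and no doublet caller.

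Members were found by the rule given above. Adjusted counts were summed over members, scaled to 1000000, and compared as log2 ratios with 10 added, for genes with a sum of at least 20. A gene at least 2-fold apart was counted. Shares carry exact Clopper-Pearson 95% intervals. There was 1 library per group, so no p was computed. The steps were tested on simulated data. Named genes were the markers and rule genes, genes of 20 lists (235 entries), and the top ranks of each comparison; members and lists were chosen with earlier results of these data known. Some genes of the lists are counted but not reported here by name. Alternatives covered the gate, the lineage genes, the score, cell filters, the added value, the minimum sum and the scaling. Python 3.11.15, numpy 2.4.6, scipy 1.17.1 and matplotlib 3.10.9 were used. A table of 12 columns of other samples and the authors' own tables of fold changes and p-values were not used.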

Additional observations from a re-analysis of the deposited data

How the results depend on the processing

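No paired analysis was possible because each group has 1 library. CONV had the highest share of members, and FLASH the lowest, under every alternative run. Members were 11.5%, 2.08% and 1.36% of all cells in CONV, CONV AsiDNA and FLASH with a score difference of at least 0.5, and 69.6%, 37.1% and 24.6% of gated cells. Without cells above the 95th percentile of summed value they were 11.4%, 1.97% and 1.33% of all cells, and 46.8% and 33.9% of gated cells in CONV AsiDNA and FLASH. The score on whole numbers gave 61.9% and 46.4% of gated cells there. Ties counted as members gave 14.9% of all and 89.8% of gated cells in CONV and 61.4% of gated cells in CONV AsiDNA. Leaving out C1q-positive cells gave 12.9% of all cells in CONV. Keeping cells with a lineage gene gave 4.10% of all and 42.1% of gated cells in CONV AsiDNA and 30.5% in FLASH.

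Counts of 2-fold genes depend on the added value. With 1 in place of 10 they were 433 higher and 628 lower (CONV over CONV AsiDNA), 649 and 610 (CONV over FLASH), 577 and 343 (CONV AsiDNA over FLASH), and, for members over resident-side cells, 461 and 563 in CONV, 389 and 680 in CONV AsiDNA and 469 and 926 in FLASH. Scaling by the median ratio gave 105 lower in CONV than in CONV AsiDNA. Without cells above the 95th percentile, 259 were higher in CONV than in FLASH, and 185 higher and 91 lower in CONV AsiDNA than in FLASH. The score difference of at least 0.5 gave 156 and 104 for that last pair, more than the 131 and 106 of CONV over CONV AsiDNA. With lineage-gene cells kept, 80 genes were lower in CONV AsiDNA than in FLASH and 46 lower in members than in resident-side cells of CONV AsiDNA.

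The medians of 3 lists moved by more than 1.5-fold, and smaller shifts in small medians, such as those of the lipid-associated genes, are given in the report. Interferon genes came to -1.49 (added value 1) and -0.17 (minimum sum of 50) for CONV over FLASH, to 3.82 (added value 1) and 0.89 (lineage-gene cells kept) for members of CONV AsiDNA, and to 3.01 (added value 1) for members of FLASH. Cell division genes came to -1.12 and -1.65 for CONV over CONV AsiDNA and over FLASH with 1 added, to -1.01 for CONV AsiDNA over FLASH with a minimum sum of 50, and to -0.20 for members over resident-side cells of CONV AsiDNA with lineage-gene cells kept. Monocyte and interstitial macrophage genes came to 0.76, 1.15 and 0.39 in the 3 library pairs without C1q-positive cells, to -1.74 for CONV AsiDNA over FLASH with 1 added, and to 1.96, 1.90 and 3.63 for members over resident-side cells with 1 added.

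The following genes turned direction. Apoe for CONV over CONV AsiDNA was -0.044 with 2 or more gate genes and -0.61 without C1q-positive cells, and for CONV AsiDNA over FLASH 3.70 without these and 0.034 without cells above the 95th percentile. Without cells above the 95th percentile, CONV over FLASH turned to 0.68 for Ifit2, 1.22 for Mki67, 1.69 for Rsad2, 1.29 for Stmn1 and 0.83 for Top2a, and CONV AsiDNA over FLASH to 0.40 for Ccnb2, 1.08 for Mki67, 0.52 for Pltp and 1.83 for Top2a. In each of these the cause was not tested. The sequencing depth behind adjusted counts is unknown, and the 138 members of FLASH limit what could be seen of rare genes. The settings on ties, C1q-positive cells, genes listed at 0, equal score bins and, for members over resident-side cells, lineage genes were chosen after seeing the data.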
